A study of Mus musculus with 2 samples.

Results

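The 10 genes described here, H19, Igf2, Cdkn1c, Phlda2, Grb10, Peg3, Peg10, Mest, Snrpn and Impact, are imprinted genes of the mouse, chosen by name from the 33696 genes of the deposited matrix. All 10 were found there by their symbols. The rule uses names only, and the levels of these genes were not used to group the cells. The study described 2 samples, with 1 sample per group: untreated epiblast stem cells, a pluripotent cell type that resembles the epiblast of the implanted embryo, and embryoid bodies grown from them, in which cells in clumps begin to differentiate, collected on day 2. Both samples carry the cell line label Delmix, and no genotype is given. Single-cell RNA was counted with droplet-based 3′ tag sequencing, in which each unique molecular identifier (UMI) stands for 1 captured RNA molecule. The deposited counts form 1 pooled matrix whose cell tags match no sample label, so no cell can be assigned to either sample and embryoid bodies were not compared with epiblast stem cells. With 1 pooled library there was no replicate, and no test was made; levels are described by cluster of cells with 95% intervals that cover counting error only.

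An imprinted gene is read mainly from the copy inherited from 1 parent, a difference set by DNA methylation laid down in the egg or the sperm and kept through later cell divisions. Many imprinted genes act on the growth of the embryo and the placenta: those read from the paternal copy, such as the growth factor gene Igf2, tend to promote growth, and those read from the maternal copy, such as the cyclin-dependent kinase inhibitor gene Cdkn1c, tend to restrain it. H19 is a long noncoding RNA that shares enhancers with its neighbour Igf2, and a methylated control region decides which of them the enhancers serve on each copy. The counts carry no information on the parental copy, so they measure how much RNA was captured and not whether imprinting was kept.

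The analysis rests on 16841 of 21593 called cells (78.0%), in which the UMI count per cell ran from 1265 to 34748 around a median of 6473. Clustering without imprinted and cell cycle genes gave 12 clusters, of which 6 could be named from marker lists: naive pluripotency-like (cluster 1, 4741 cells), epithelial-like (3, 1746), primitive streak and mesoderm-like (7, 731), fibroblast or feeder-like (9, 603), two-cell-like (11, 192) and macrophage-like (12, 81). The others are called by 2 of their leading genes: Fgf5 and Pim2 (cluster 2, 3250 cells), Mt1 and Car4 (4, 1669), Meis2 and Fgf8 (5, 1445), Lefty1 and Bst2 (6, 1401), and Rhox6 and Rhox9 (10, 260). The remaining cluster 8 (722 cells) was shallow, at 2654.5 UMIs and an 8.08% mitochondrial share in the median cell. Levels are UMIs of a gene summed over the cells of a cluster and scaled to a fixed total (counts per 1e+06 UMIs, CPM), and a gene is called higher or lower in a cluster at a 2-fold difference from all other kept cells with at least 20 CPM on the higher side.

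Sequences are shown for H19, Peg3 and Mest, the members that were higher in the streak and mesoderm-like cells: the microRNAs that H19 and Mest carry, and the promoters of Peg3 and Mest. Promoter windows span 250 bases before to 50 bases after an annotated start (RefSeq, GRCm38.p6), and 6 of the 10 members have at least 1. H19 carries a microRNA within its transcript, and Mest carries another in an intron. Their mature forms from RefSeq follow, with the seed (bases 2 to 8) in capitals. The 4 seeds differ from each other.
miR-675-5p (H19, chr7:142577112-142577133, minus strand): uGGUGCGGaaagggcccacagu
miR-675-3p (H19, chr7:142577078-142577099, minus strand): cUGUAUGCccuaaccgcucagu
miR-335-5p (Mest, chr6:30741314-30741336, plus strand): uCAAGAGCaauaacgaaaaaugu
miR-335-3p (Mest, chr6:30741354-30741375, plus strand): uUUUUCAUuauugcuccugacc

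In the promoter windows below, capitals mark matches on either strand to TGCCGC, the core letters bound by ZFP57 (a zinc finger protein that protects methylated imprints), to the CCAAT box CCAAT and to the GC box GGGCGG. Among 32851 windows of the same length, 11.6% hold TGCCGC, 37.4% CCAAT and 35.7% GGGCGG, and the median window has 7 CpG. The Peg3 window holds 13 CpG and 2 CCAAT matches and no TGCCGC. It overlaps the window of Usp29, a neighbouring gene read in the opposite direction, by 263 bases. The Mest window holds 17 CpG, 2 TGCCGC matches and 1 GC box, and another annotated start of Mest lies 3 bases downstream. A further Mest window, which starts at base 30733256 of chromosome 6 and is not printed, holds 8 CpG, 1 GC box and no TGCCGC. A match is a description of the letters and not a measured site of binding.
Peg3 (chr7:6730370-6730669, minus strand): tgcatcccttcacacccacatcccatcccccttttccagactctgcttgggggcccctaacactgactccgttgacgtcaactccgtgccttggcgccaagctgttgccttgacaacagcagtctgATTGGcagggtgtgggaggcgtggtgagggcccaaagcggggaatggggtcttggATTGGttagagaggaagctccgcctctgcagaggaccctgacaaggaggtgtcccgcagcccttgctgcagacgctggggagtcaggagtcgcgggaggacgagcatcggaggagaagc
Mest (chr6:30737800-30738099, plus strand): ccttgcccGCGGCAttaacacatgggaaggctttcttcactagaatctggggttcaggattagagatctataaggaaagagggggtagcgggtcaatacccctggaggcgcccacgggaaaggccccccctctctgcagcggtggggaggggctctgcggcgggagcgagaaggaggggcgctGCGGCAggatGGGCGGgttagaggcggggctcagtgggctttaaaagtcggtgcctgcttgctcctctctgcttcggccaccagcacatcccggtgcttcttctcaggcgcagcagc

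Of the 9 members with at least 20 CPM in a cluster of at least 100 cells, 6 (H19, Cdkn1c, Grb10, Peg3, Peg10 and Mest) were higher in at least 1 cluster, beside 49.4% of all genes tested. Of the same 9, 7 were lower in at least 1 cluster (H19, Phlda2, Grb10, Peg3, Peg10, Mest and Snrpn), beside 28.3% of all genes. Without the fibroblast or feeder-like and macrophage-like cells 5 were lower (Phlda2, Grb10, Peg3, Peg10 and Mest), a setting for which the share of all genes was not computed. A lower call can also rest on another cluster that raises the comparison level, as described below for H19 and Peg3. The members did not move as 1 group. H19, Cdkn1c and Grb10 were highest in the fibroblast or feeder-like cells, Peg3 and Mest in the primitive streak and mesoderm-like cells, Peg10 in the epithelial-like and the streak and mesoderm-like cells, whose intervals overlapped, Phlda2 in the Mt1 and Car4 cells and Snrpn in the Meis2 and Fgf8 cells, while Impact stayed within a narrow range.

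**Figure D1:**
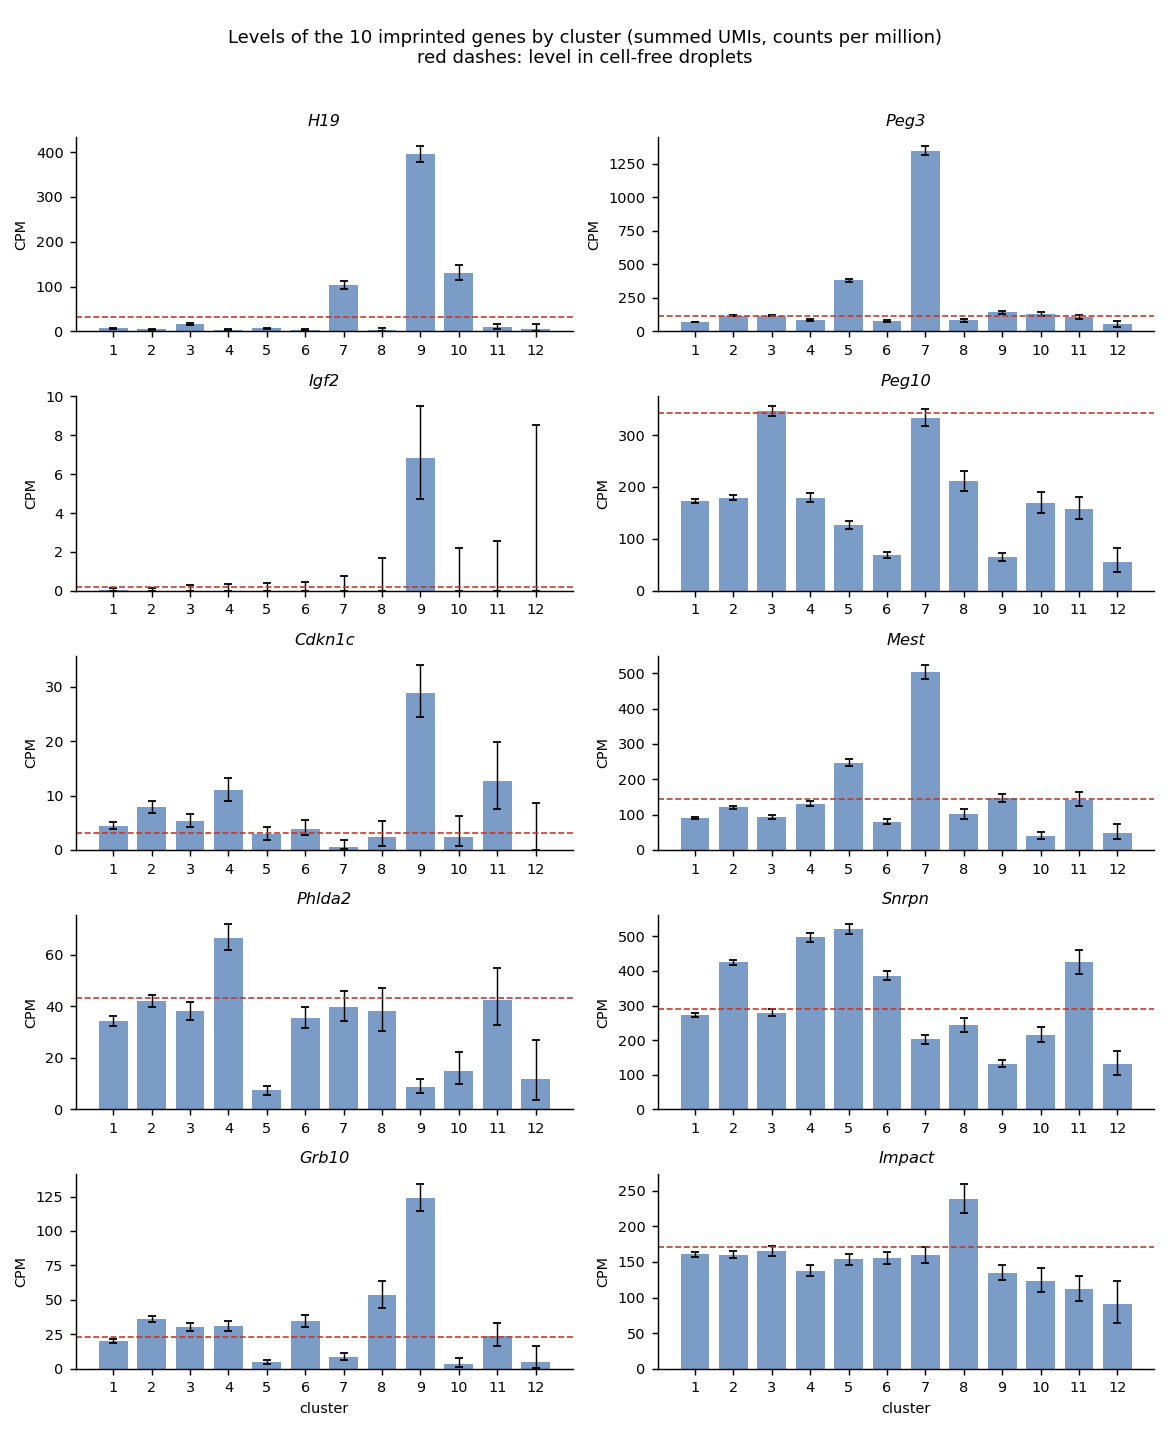
Level of each of the 10 imprinted genes (CPM, linear axes from 0) in clusters 1 to 12, with exact Poisson 95% intervals as black bars and the level in cell-free droplets as a red dashed line. H19 stands out in clusters 7, 9 and 10, Peg3 and Mest in clusters 5 and 7, and Impact is the flattest of the 10.

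H19, the maternally read noncoding RNA, reached 395 CPM (377 to 413) in cluster 9, the fibroblast or feeder-like cells. The next levels were 130 CPM (114 to 149) in cluster 10, marked by Rhox6 and Rhox9, and 103 CPM (94.2 to 112) in cluster 7, the streak and mesoderm-like cells. None of these 3 intervals overlapped another or that of any other cluster, although those of clusters 10 and 7 nearly met. The intervals leave out the spread between cells, which was wide for H19, so they do not settle the order of clusters 10 and 7. Next came the epithelial-like cluster 3 at 16.8 CPM (14.6 to 19.1) and the two-cell-like cluster 11 at 10.5 CPM (5.87 to 17.3), whose intervals overlapped. The other 7 clusters lay between 4.04 and 6.91 CPM. Against all other kept cells H19 was 28.7-fold higher in cluster 9, 4.68-fold higher in cluster 10 and 3.94-fold higher in cluster 7.

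Cluster 9 held 57.0% of all H19 UMIs, which raised the level in the comparison cells of every other cluster. H19 met the rule for lower in clusters 1, 2, 4, 5, 6, 8, 11 and 12, where in that order 5.71%, 1.61%, 3.95%, 5.51%, 1.98%, 13.6%, 5.17% and 22.4% of all genes tested were lower. It met that rule in no cluster once the fibroblast or feeder-like and macrophage-like cells were left out. The log2 differences were then -1.06, -1.63, -1.54, -1.52 and -1.45 in clusters 1, 2, 4, 6 and 8, still beyond 2-fold, but H19 no longer reached 20 CPM in the comparison cells (12.8 CPM in all cells outside cluster 9). In clusters 5 and 11 they were -0.93 and -0.27. Cell-free droplets held H19 at 32.1 CPM, close to the 28.5 CPM of all kept cells. If each cell had taken up the free RNA of 1 such droplet, cluster 9 would hold 4.20 H19 UMIs from that source beside the 1969 counted, and cluster 10 would hold 1.81 beside 217. In cluster 8 the same estimate was 5.03 beside 9 counted. In clusters 2, 4 and 6, whose levels were as low, it was 22.7, 11.6 and 9.76 beside 125, 41 and 32 counted, so these counts were above the estimate.

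Cells differed widely in H19 within a cluster. In cluster 9, 300 of 603 cells had at least 1 H19 UMI, 177 had at least 3 and 68 had at least 10, and the highest cell had 67. After thinning every cell to 2000 UMIs the share with H19 was 32.2% (exact binomial interval 28.4 to 36.1%) in cluster 9, 14.3% (10.3 to 19.2%) in cluster 10 and 12.2% (9.85 to 14.8%) in cluster 7. Without thinning these shares were 49.8%, 25.8% and 25.7%, at median depths of 6960, 6076.5 and 5775 UMIs. In the macrophage-like cells it was 1.25% (0.0316 to 6.77%) thinned and 2.47% not thinned, at a median depth of 3991 UMIs. The 10% of cells with the most H19 held 59.2% of its UMIs within cluster 9, and 74.3% and 76.5% within clusters 7 and 10.

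**Figure D2:**
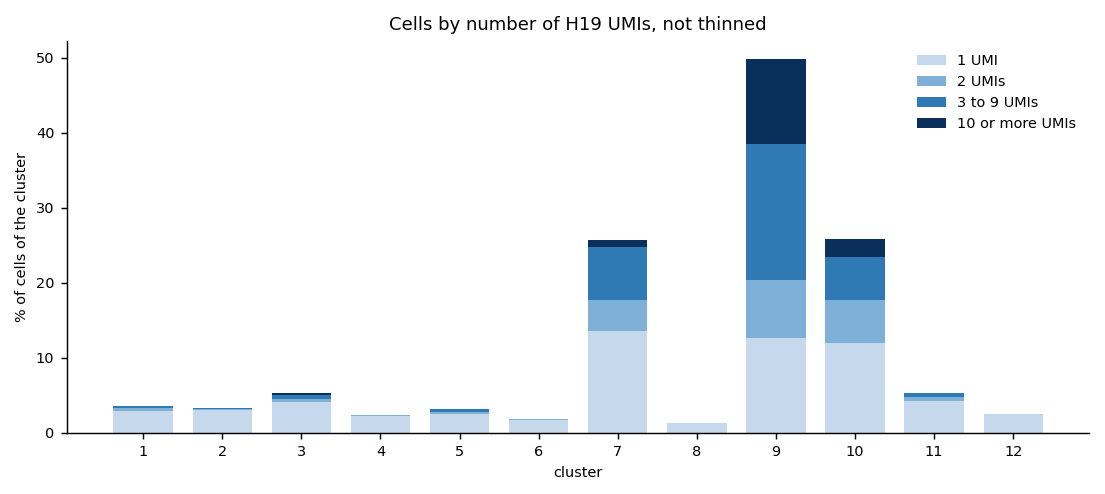
Share of the cells of each cluster (percent, not thinned) with 1, 2, 3 to 9, or 10 or more H19 UMIs, stacked from light to dark. Cluster 9 reaches 49.8% and holds most of the cells with 10 or more UMIs, and clusters 7 and 10 reach 25.7% and 25.8%.

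Igf2, the growth factor gene next to H19, was almost absent from the library: 35 UMIs were counted among 121114764, of which 34 lay in cluster 9 (6.82 CPM, 4.72 to 9.52) and 1 in cluster 1. Clusters 7 and 10, where H19 was also higher, had 0 Igf2 UMIs, and their upper limits were 0.746 and 2.22 CPM. Of the 603 cells of cluster 9, 26 had an Igf2 UMI, and 18 of these also had H19. That is 69.2% of the cells with Igf2, beside 48.9% of the cells without it, at median depths of 9687 and 6872 UMIs. The H19 level was 1044 CPM in the cells with Igf2 and 356 CPM in those without. Cdkn1c was also at a higher level in the cells with Igf2 (82.8 beside 25.7 CPM), whereas Mest was at 32.4 beside 154 CPM. Only 23 Cdkn1c and 9 Mest UMIs lie behind the values in cells with Igf2. A set of 74 cells of cluster 9 with much Mest, described below, had 0 Igf2 UMIs and so lies wholly among the cells without Igf2.

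Cdkn1c, the cyclin-dependent kinase inhibitor, was highest in cluster 9 at 28.9 CPM (24.3 to 34.0), 4.50-fold above all other cells. The two-cell-like cluster 11 followed at 12.6 CPM (7.46 to 19.9) and the Mt1 and Car4 cluster 4 at 10.9 CPM (8.99 to 13.2), with overlapping intervals. Cluster 7 had only 3 Cdkn1c UMIs in 731 cells, or 0.607 CPM (0.125 to 1.77). Cluster 9 was thus the only cluster in which the gene passed 20 CPM.

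Phlda2, which restrains placental growth and lies in the same imprinted region as Cdkn1c, had another pattern. It was highest in the Mt1 and Car4 cluster 4 at 66.7 CPM (61.7 to 71.9), 1.97-fold above all other cells and so just short of the 2-fold rule. It met the rule at 2.05-fold without called doublets, 2.02-fold with the CPM total taken without mitochondrial and ribosomal protein genes, and 2.01-fold with free RNA subtracted. Clusters 1, 2, 3, 6, 7, 8 and 11 lay between 34.2 and 42.7 CPM. It was lower in the Meis2 and Fgf8 cluster 5 at 7.30 CPM (5.68 to 9.23), in cluster 9 at 8.62 CPM (6.24 to 11.6) and in cluster 10 at 15.03 CPM (9.73 to 22.2). Of the 43 Phlda2 UMIs of cluster 9, 35 lay in called doublets, and its other cells were at 2.39 CPM (1.03 to 4.71). Across 11 clusters the Pearson r between log2 levels of Cdkn1c and Phlda2 was -0.09, a description of clusters that share 1 library.

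Grb10 encodes an adaptor protein that dampens signalling from the insulin and IGF receptors. Its level was 124 CPM (115 to 134) in cluster 9, 4.72-fold above all other cells, and 53.3 CPM (44.0 to 63.9) in the shallow cluster 8. Clusters 2, 3, 4 and 6 followed between 29.9 and 35.8 CPM, then cluster 11 at 23.8 and cluster 1 at 19.9 CPM. Grb10 was lower in cluster 7 at 8.29 CPM (5.95 to 11.2), in cluster 5 at 4.86 CPM (3.56 to 6.49) and in cluster 10 at 3.61 CPM (1.32 to 7.85), the last from 6 UMIs. The intervals of clusters 5 and 10 overlapped. Grb10 was thus low in 2 of the 3 clusters with the most H19 and high in the other.

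In cluster 9 as a whole, H19, Cdkn1c and Grb10 were higher, where 17.1% of all genes tested were higher, and Phlda2, Peg10 and Snrpn were lower, where 11.8% were lower. The 13 fibroblast or feeder markers summed to 9534 CPM in cluster 9 with none at 0, and to 104 CPM in cluster 7 (Thy1 at 0) and 22.3 CPM in cluster 10 (Lum, Postn, Thy1 and Lox at 0). Scrublet called 22.6% of the cells of cluster 9 doublets. Cells not called doublets had 472 CPM of H19, 149 of Grb10, 72.6 of Snrpn and 37.7 of Peg10, and called doublets had 237, 73.0, 251 and 120 CPM. The part of doublets in the levels of cluster 9 was not tested further. Cells of cluster 9 with an H19 UMI had 223 CPM of Mest and 186 of Peg3, and those without had 66.7 and 98.4 CPM, at median depths of 7102 and 6769 UMIs. A set of 74 cells of cluster 9, described with Mest below, was high in all 3 genes. It held 458 of the 734 Mest and 238 of the 714 Peg3 UMIs of the cluster. Its part in these differences was not tested. Grb10 was at 129 CPM in the cells with an H19 UMI and 120 CPM in those without.

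Peg3, a paternally read gene for a large zinc finger protein, was highest in cluster 7, the streak and mesoderm-like cells, at 1346 CPM (1314 to 1379), 11.3-fold above all other cells. Second was the Meis2 and Fgf8 cluster 5 at 380 CPM (368 to 393), 2.51-fold above the rest. Clusters 9, 10, 3, 2 and 11 followed between 107 and 143 CPM, and clusters 4, 8, 6 and 1 lay between 70.8 and 83.4 CPM. In cluster 7 the gene was found in nearly all cells: 95.1% had a Peg3 UMI, 83.1% (80.2 to 85.8%) after thinning, and 591 of 731 cells had at least 3. In the naive pluripotency-like cluster 1 the shares were 36.0% and 12.3%. Cluster 7, with 4.34% of the kept cells, held 32.6% of all Peg3 UMIs, which raised the level in the comparison cells of every other cluster. The lower calls of Peg3 were made against such raised levels and were not repeated without cluster 7.

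Usp29, the neighbour that shares the Peg3 promoter region printed above, was highest in the same clusters, with 111 CPM (102 to 121) for cluster 7 and 52.1 CPM (47.6 to 56.9) for cluster 5. The other clusters of at least 100 cells lay between 4.40 and 16.5 CPM. The Pearson r of the log2 levels of Peg3 and Usp29 over 11 clusters was 0.93. The same description gave 0.32 for Peg10 and its neighbour Sgce, which also share a start region, and -0.45 for Mest and its neighbour Copg2. It gave 0.66 for H19 and Igf2, where the values of Igf2 rest on 35 UMIs. As 34 of these lay in cluster 9, also the highest for H19, that cluster largely sets the value.

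**Figure D3:**
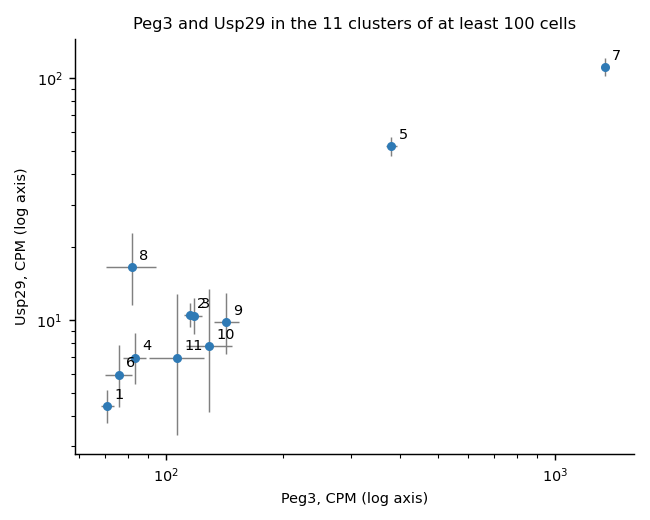
Level of Usp29 against that of Peg3 (CPM, both axes logarithmic), 1 point per cluster of at least 100 cells, with exact Poisson 95% intervals in grey. Clusters 7 and 5 stand apart at the upper right, with 1346 and 380 CPM of Peg3.

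Mest, also called Peg1, encodes an enzyme-like protein of the alpha/beta hydrolase family and is known for its expression in embryonic mesoderm. It too was highest in cluster 7, at 503 CPM (483 to 523), 4.30-fold above all other cells, with cluster 5 second at 247 CPM (237 to 257), 2.01-fold above the rest. Clusters 9, 11, 4 and 2 lay between 120 and 147 CPM and clusters 8, 3, 1 and 6 between 79.8 and 101 CPM. The Rhox6 and Rhox9 cluster 10 was lowest at 40.3 CPM (31.2 to 51.2). At the finer clustering (resolution 1.0) the order was another. A cluster of 220 cells, of which 145 came from cluster 5 and 74 from cluster 9, was highest at 1037 CPM of Mest, above the 508 CPM of the finer cluster that held most of cluster 7. Its 145 cells from cluster 5 had 927 CPM (858 to 999) at a median depth of 4020 UMIs, and the 1244 cells of cluster 5 in another finer cluster had 192 CPM (183 to 202) at 6136.5 UMIs. Its 74 cells from cluster 9 had 1289 CPM of Mest, 771 of H19 and 670 of Peg3, where the 529 other cells of cluster 9 had 59.6, 366 and 103 CPM. The levels of Mest in clusters 5 and 9 were thus carried in part by a small set of cells. The call in cluster 5 is at the edge of the rule: the log2 difference was 0.98 without called doublets and 0.85 under a stricter cell filter.

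In cluster 7, H19, Peg3 and Mest were higher, beside 5.90% of all genes tested, and Grb10 was lower, beside 4.89%. In cluster 5, Peg3 and Mest were higher (4.36% of all genes) and H19, Phlda2 and Grb10 were lower (5.51%). Cells of cluster 7 were split by UMIs of 5 streak genes (T, Mixl1, Mesp1, Eomes, Evx1) and 5 lateral mesoderm and blood vessel genes (Hand1, Kdr, Foxf1, Tal1, Etv2), a split chosen after the cluster had been seen. The 305 cells with streak genes only had 48.9 CPM of H19 (39.6 to 59.8), the 271 with both had 73.2 (62.1 to 85.7), and the 79 with the second set only had 365 (316 to 420). Mest followed the same order, at 310, 579 and 782 CPM. Peg3 did not, at 1124, 1611 and 1165 CPM. The 76 cells with neither set had 172 CPM of H19, 1265 of Peg3 and 682 of Mest at the lowest median depth, 4020.5 UMIs beside 5329, 6626 and 5855. Scrublet called 18.1% of the cluster doublets. Cells not called doublets had 128 CPM of H19, 1578 of Peg3 and 572 of Mest, all above the 46.2, 819 and 346 CPM of the called ones.

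**Figure D4:**
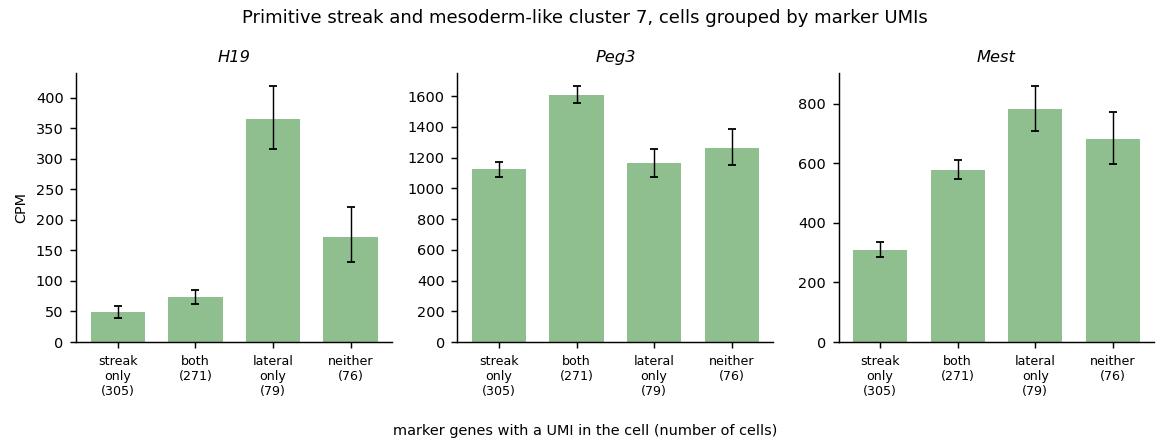
Levels of H19, Peg3 and Mest (CPM, linear axes from 0) in the cells of cluster 7 grouped by whether streak genes, lateral genes, both or neither had a UMI, with the number of cells in brackets and exact Poisson 95% intervals. H19 is lowest in streak-only cells (48.9 CPM) and highest in lateral-only cells (365 CPM), and Peg3 is highest in cells with both, at 1611 CPM.

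Peg10, a gene derived from a retrotransposon and needed for placental development, was highest in the epithelial-like cluster 3 at 346 CPM (336 to 356), 2.08-fold above all other cells, where 2.40% of all genes were higher. Cluster 7 was at 333 CPM (317 to 350), with an overlapping interval, but 1.85-fold above its own comparison cells and so not called. Without called doublets the order turned, with 367 CPM in cluster 7, then 2.01-fold above its comparison cells, and 344 CPM in cluster 3. Clusters 8, 4, 2, 1, 10 and 11 lay between 158 and 211 CPM and cluster 5 at 126. Peg10 was lower in cluster 6 (Lefty1 and Bst2), with 68.4 CPM (62.8 to 74.4), and in cluster 9, with 64.9 CPM (58.1 to 72.4). In cluster 3 the gene was uneven between cells, with the top 10% of cells holding 54.5% of its UMIs and a highest cell of 81. At the finer clustering (resolution 1.0), 980 cells of cluster 3 had 524 CPM (508 to 540) of Peg10. Another 745 cells of cluster 3 had 111 CPM (102 to 120), below the level of all kept cells. The level of cluster 3 was thus carried by a part of its cells. Peg10 in cluster 3 also differed by cell tag, as given in the last paragraph. Cell-free droplets held Peg10 at 343 CPM, 1.84-fold the 186 CPM of kept cells. Of 6864 genes with at least 20 CPM in either, 1.86% were at least 1.5-fold higher in cell-free droplets. Free RNA of 1 droplet per cell would give 9.67 CPM in cluster 3.

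Snrpn encodes a protein of the splicing machinery in the region deleted in Prader-Willi syndrome. It was highest in cluster 5 at 520 CPM (506 to 535) and in cluster 4 at 497 CPM (484 to 511), with overlapping intervals, then at 425 CPM in clusters 2 and 11 and at 386 CPM in cluster 6. Clusters 3 and 1 followed at 280 and 273 CPM, and clusters 8, 10 and 7 between 202 and 243 CPM. It was lower in cluster 9, at 131 CPM (121 to 142). Snurf, read from the same transcript as Snrpn, had 0 UMIs in the matrix of kept cells, so any reads of the shared transcript that were counted are under Snrpn.

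Impact, a regulator of the control of translation, was the flattest of the 9 members. Its highest cluster, the shallow cluster 8 at 239 CPM (219 to 260), was 2.13-fold above the lowest of at least 100 cells, cluster 11 at 112 CPM (95.2 to 131). Clusters 1 to 7 lay between 138 and 166 CPM, and cluster 9 at 135 and cluster 10 at 124. It was called in no cluster. Over all genes tested, 42.5% had at least a 4-fold range between clusters and 15.7% at least a 10-fold range. H19, Cdkn1c, Grb10, Peg3 and Mest were above a 10-fold range, at 78.5, 18.6, 27.2, 18.8 and 12.2-fold, Phlda2 and Peg10 at 8.16 and 5.27-fold, and Snrpn at 3.94-fold.

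The Rhox6 and Rhox9 cluster 10 had H19 higher (4.21% of all genes) and Phlda2, Grb10 and Mest lower (7.13%). Its 260 cells raised 8 of 11 primordial germ cell markers and 7 naive pluripotency markers, and so it kept no name. The trophoblast list summed to 284 CPM there and 345 CPM in cluster 7, with Elf5, Tpbpa, Prl3d1 and Syna at 0 in both. Most of the sum in cluster 10 came from Tfap2c, which is also a primordial germ cell marker. In cluster 7 most came from Hand1 and Eomes, which are also streak and mesoderm markers. The sums therefore do not mark either cluster as trophoblast. The 67 cells of cluster 10 with H19 had 303 CPM of Peg10 and 200 of Peg3, and the 193 without had 118 and 103 CPM, at median depths of 6351 and 6036 UMIs. Mest and Grb10 were low in both sets, at 44.0 and 38.9 CPM and at 6.59 and 2.48 CPM. No cell of cluster 10 was called a doublet. At the finer clustering (resolution 1.0), the 260 cells of cluster 10 lay in 1 cluster with 342 cells of cluster 1. These 342 cells had 34.5 CPM of H19, 13.04 of Phlda2, 8.85 of Grb10 and 59.6 of Mest. They held 74 of the 248 H19 UMIs of cluster 1. The 2166 cells of cluster 1 in another finer cluster had 5.52, 32.4, 20.6 and 87.4 CPM. The pattern of cluster 10 was thus shared in direction by a part of cluster 1. In the 81 macrophage-like cells of cluster 12, H19, Phlda2, Grb10, Peg3, Peg10, Mest and Snrpn were all lower, where 22.4% of all genes were, and none of the members was higher.

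Other imprinted genes were read from 2 lists by the copy usually expressed. Of 67 in the matrix, 41 reached 20 CPM in a cluster, and 35 of these were higher and 20 lower in at least 1 cluster, shares to set beside the 49.4% and 28.3% above. In cluster 7, 7 of 35 tested were higher (Gnas, Asb4, Usp29, Nnat, Sgce, Airn and Slc38a4) and 4 lower, with a median log2 difference of 0.16 beside 0.07 for all genes, of which 5.90% were higher and 4.89% lower. In cluster 5, 4 were higher (Gnas, Usp29, Nnat and Dlk1) and 4 lower of 35 tested (4.36% and 5.51% of all genes), median 0.35 beside 0.05. In cluster 9, 11 of 35 were higher and 12 lower (17.1% and 11.8% of all genes), median -0.26 beside -0.13. In cluster 10, 2 of 29 were higher and 7 lower (4.21% and 7.13% of all genes), median -0.46 beside -0.08. Dcn is among the lower genes of clusters 5, 7 and 10. Its comparison level came almost wholly from cluster 9, with levels given below, so these calls say little about those clusters. In the shallow cluster 8, 20 of 33 were higher, where 30.9% of all genes were, and the median was 1.20 beside 0.45. All of these 20 except Sgce and Sfmbt2 were higher in no other cluster. The count of 35 in 41 thus rests in large part on cluster 8, which also enters the 49.4% of all genes.

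Asb4, a substrate adaptor for protein degradation, stood at 87.8 CPM (79.7 to 96.4) in cluster 7 and at most 9.79 CPM elsewhere. Dlk1, a membrane protein of the Notch ligand type, was at 77.0 CPM in cluster 9 and 32.5 CPM in cluster 5. Meg3, Rian and Rtl1, which lie in the same imprinted region as Dlk1, were all highest in cluster 8 and lowest in cluster 10 among clusters of at least 100 cells, at 3293 and 120 CPM for Meg3, 1766 and 66.7 CPM for Rian, and 79.5 and 2.41 CPM for Rtl1. Nnat, a small membrane protein, was at 40.7 CPM in cluster 5 and 29.3 CPM in cluster 7. Dcn, a matrix protein and also a fibroblast marker, was at 638 CPM in cluster 9 and at most 1.20 CPM in the other clusters of at least 100 cells.

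**Figure D5:**
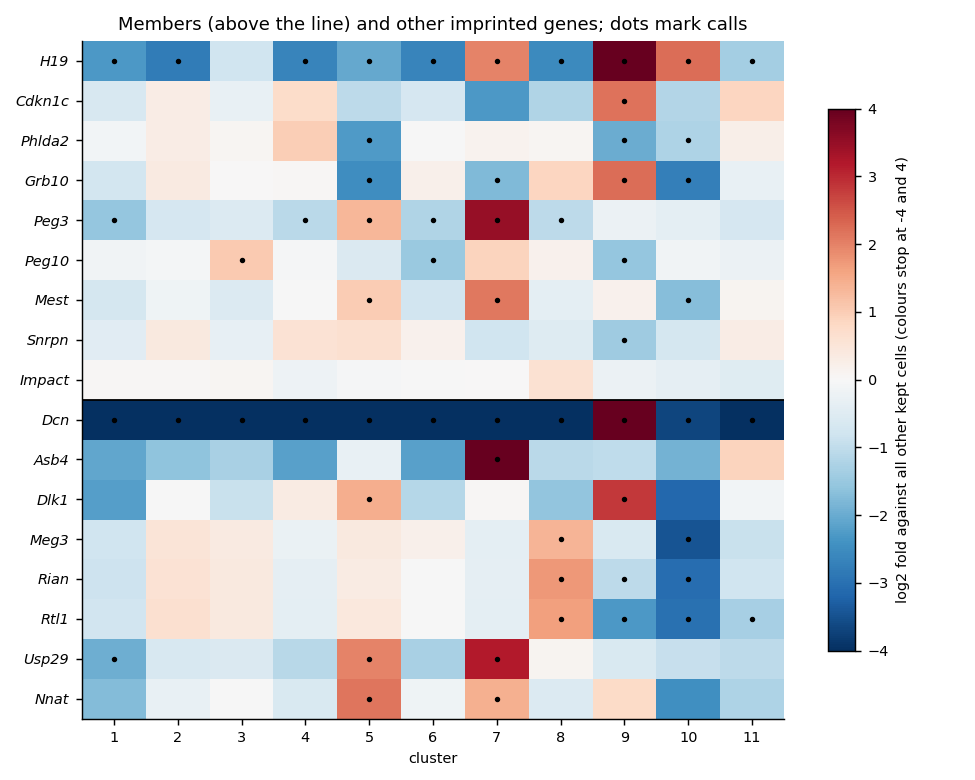
log2 difference of each gene between a cluster and all other kept cells, red for higher and blue for lower, in the 11 clusters of at least 100 cells, with dots where the 2-fold rule was met. Members other than Igf2 are above the line and 8 other imprinted genes below it, and H19, Peg3 and Usp29 are red in cluster 7 while Meg3, Rian and Rtl1 are blue in cluster 10.

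Among 23 genes of the insulin-like growth factor pathway, 11 of 20 tested were higher and 3 lower in cluster 9, where 17.1% and 11.8% of all genes were. The median log2 difference was 1.49 beside -0.13 for all genes. In the other clusters 13 to 16 genes of the list were tested. Part of the 20 thus passed the 20 CPM limit only through their level in cluster 9, where such genes cannot be lower. The count of 11 and the median are in part set by that limit, which also applies to all genes in cluster 9. The binding proteins Igfbp5 and Igfbp7 were at 164 and 170 CPM there, and Pappa, a protease that cuts such binding proteins, at 89.8 CPM. The receptors Igf1r and Igf2r were at 191 CPM each. In cluster 7, 4 of 15 were higher (Igf1r, Igfbp3, Igfbp4 and Igf2bp2), with Igfbp4 at 203 CPM, and none was lower, while 5.90% and 4.89% of all genes were. In cluster 10, where H19 was higher, 3 of 13 were lower and none higher, beside 7.13% and 4.21% of all genes.

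The imprint maintenance list of 20 genes holds genes that set or keep imprints. It also holds Tet1, Tet2 and Tet3, whose enzymes act on methylated cytosine and do not set or keep imprints. Of the 18 genes tested, 5 were higher in the naive pluripotency-like cluster 1, where 2.28% of all genes were: Zfp57, Dppa3, Dnmt3l, Tet1 and Tet2. Dppa3, which protects the maternal genome from demethylation, was at 188 CPM in cluster 1 and 569 CPM in cluster 10. Tet1, which oxidises methylated cytosine, was at 423 CPM in cluster 1. Those 5 were all lower in cluster 5, beside 5.51% of all genes, and Dppa3, Dnmt3l and Tet1 were lower in cluster 7, beside 4.89%. The de novo methyltransferase Dnmt3b was lowest in cluster 10 at 55.9 CPM. In cluster 9, 8 of 19 were lower and none higher, beside 11.8% and 17.1% of all genes, with a median of -0.90 beside -0.13. Genes of the growth factor, imprint maintenance, cell cycle inhibitor and trophoblast lists could enter the clustering, and Dppa3 is a naive pluripotency marker, so these levels only describe the clusters.

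Among 18 cyclin-dependent kinase inhibitor and cell cycle genes, 5 of 16 tested were higher in cluster 9 and 6 lower, beside 17.1% and 11.8% of all genes, with a median of 0.01 beside -0.13. The higher ones included the inhibitors Cdkn1a (859 CPM), Cdkn2a (333 CPM) and Cdkn2b (101 CPM) and the cyclin Ccnd2 (560 CPM), and the lower ones were the proliferation genes Mki67, Top2a, Mcm2, Mcm5, Ccnb1 and Ccna2. The cyclin Ccnd1 was the remaining higher gene. Cdkn1c is thus higher in the same cluster as 3 other inhibitors. The inhibitors Cdkn1b, Cdkn2c and Cdkn2d of the same list were called neither higher nor lower there. In the other clusters 14 or 15 genes of this list were tested, so part of the 16 passed the 20 CPM limit only through cluster 9. Of 14 trophoblast genes, 5 reached 20 CPM in a cluster: Hand1 (76.8 CPM) and Eomes (184 CPM) were higher in cluster 7, and Gata2 (26.5 CPM) and Tfap2c (207 CPM) in cluster 10. Tfap2c was also higher in the naive pluripotency-like cluster 1 (85.0 CPM), and Rtl1, the remaining gene, was higher in cluster 8. Hand1 and Eomes also belong to the streak and mesoderm markers, and Tfap2c to the primordial germ cell markers.

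The genes whose log2 levels were most like those of each member over the 11 clusters are given as a description, since all clusters share 1 library. For H19 they were Cst3 (r = 0.94) and Bcl9l (0.93), for Cdkn1c Bc1 (0.85) and Thy1 (0.84), and for Phlda2 Ajuba and Larp1b (both 0.84). For Grb10 they were Sned1 (0.97) and Cpne8 (0.96), for Peg3 Aplnr (0.96) and Adssl1 (0.94), and for Mest Rspo3 and Car3 (both 0.93). For Peg10 they were Rbm20 (0.83) and Igf2bp1 (0.81), for Snrpn Ggct (0.90) and Igfbp2 (0.87), and for Impact Cog7 and Clasrp (both 0.98). Peg3 and Mest themselves had r = 0.81 with each other, whereas H19 and Grb10, both highest in cluster 9, had r = -0.06.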

How the data were processed

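The deposited matrix holds raw UMI counts per gene and barcode, written by Cell Ranger 8.0.1 according to the header the authors left in it. The submitters' processing notes also name Seurat. The authors' tag table lists a tag call for each called cell: 59 cells were given to CMO311, 64 to CMO312 and 21465 (99.4%) to neither. Their genome build is not given in the sources used here.

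Cells were kept from 1000 genes upwards and up to 10% mitochondrial UMIs (121114764 UMIs in all) and clustered with scanpy 1.11.5 (Leiden resolution 0.5, 2000 variable genes without imprinted or cell cycle genes, 30 components, 15 neighbours, seed fixed). Scrublet, at an expected rate of 0.1, called 1729 cells (10.3%) doublets, which were left in. CPM have exact Poisson and shares exact binomial (Clopper-Pearson) 95% intervals. Folds use a pseudocount of 1 CPM. PCR and droplet sampling errors beyond counting are not covered, nor is the spread between cells of a cluster in the CPM intervals. Thinning to 2000 UMIs left out 294 cells. As cell-free droplets, 72027 barcodes not called as cells, with 150 to 300 UMIs (mean 217), were taken. Free RNA was not removed.

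The members and lists were chosen with earlier results of these data known. All members are named. Of the other lists, up to 8 imprinted genes and up to 4 genes of each further list with the largest ratio between clusters are named with levels, and for each member the 2 genes with the highest r. Igf1r, Igf2r, Usp29, Sgce and Copg2 as neighbours or receptors, Snurf, and genes listed beside counts were added after their values were seen. A cluster was named where at least 3 markers were raised, at least 1 was among its 10 leading genes, and more than 2 times as many were raised as of the next list, a rule set after the clusters were seen. Cluster 2 met it with 3 of 15 primed epiblast markers and was left unnamed because so few were raised. Alternatives covered the cell filter, doublets, resolution, imprinted genes in the clustering, CPM total, free RNA, pseudocount, thresholds and thinning. Leaving out fibroblast or feeder-like and macrophage-like cells, or cluster 8, was added after seeing the data. Zim3, Gpr1, Zrsr1, Nespas and Peg3os were not matched by symbol.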

Additional observations from a re-analysis of the deposited data

Results flagged for a closer look

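The tag oligos entered no result on the clusters above, and their levels stood above those of cell-free droplets in several clusters. The limit used was the 90th percentile of tag UMIs in cell-free droplets, 1228 for CMO311 and 478 for CMO312. The median number of CMO311 UMIs per cell was 2488 in the Meis2 and Fgf8 cells (5), 1458 in the Lefty1 and Bst2 cells (6) and 2102 in the fibroblast or feeder-like cells (9). The median number of CMO312 UMIs was 2543 in the streak and mesoderm-like cells (7), 641 in the shallow cells (8), 598 in the Mt1 and Car4 cells (4), 596 in the Fgf5 and Pim2 cells (2) and 516.5 in the epithelial-like cells (3). The cluster with the highest levels of Peg3 and Mest (7) and that with the highest H19 (9) are thus marked by different tags. No label ties either tag to a sample.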

How the results depend on the processing

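The number of members higher in at least 1 cluster was 6 and ran from 5 to 9 over the alternatives. Without called doublets 4 calls were gained, Phlda2 higher in cluster 4, Peg10 higher and Snrpn lower in cluster 7, and Peg3 lower in cluster 11. The number lower was 7 and fell to 4 (Peg3, Peg10, Mest and Snrpn) with at least 50 CPM required on the higher side. It was 5 without the fibroblast or feeder-like and macrophage-like cells. Of 31 calls in clusters of at least 100 cells, none changed sign under the alternatives that kept the cluster labels. By setting, 30 kept their call when the CPM total excluded mitochondrial and ribosomal genes, 31 with free RNA subtracted, 30 at a pseudocount of 5 CPM, 28 under the strict cell filter and 30 without called doublets. Without the fibroblast or feeder-like and macrophage-like cells, 18 kept it and 7, all of them H19 lower, did not; the 6 calls of cluster 9 fall away with its cells. Without cluster 8 the 29 calls outside it were kept. Of the 18 genes named as most like a member, 4 were also chosen by Spearman's rho and 5 without the member's highest cluster, so these names depend on the measure. No paired analysis was possible because the counts form 1 pooled library. Depth limits Igf2 (35 UMIs) and Cdkn1c (798 UMIs) most, and shares of cells move with depth: H19 in cluster 9 was found in 49.8% of cells not thinned, 36.9% at 4000 UMIs and 32.2% at 2000.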

Other observations

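Cells were also described by tag, as values with no sample assigned. A cell was placed in a tag class where only that tag exceeded its limit in cell-free droplets, which gave 4969 cells for CMO311 and 4913 for CMO312. Peg10 stood at 106 CPM in the CMO311 class and 271 CPM in the CMO312 class, Phlda2 at 26.1 and 48.9 CPM, Peg3 at 150 and 240 CPM, and H19 at 35.5 and 23.5 CPM. The classes hold different clusters: cluster 7 made up 1.25% of the first and 10.1% of the second, and cluster 9 made up 7.41% and 0.570%. Within the epithelial-like cluster 3, Peg10 was at 102 CPM in 449 cells of the CMO311 class and 570 CPM in 686 cells of the CMO312 class, at median depths of 7004 and 6950.5 UMIs. H19 in the same cells was at 3.54 and 30.5 CPM, Mest at 61.7 and 111 CPM, and Grb10 at 30.1 and 27.8 CPM. The tag classes carry no replicate, and these differences were not tested.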
